A study of Pinus pinaster with 18 samples.

Results

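In maritime pine (Pinus pinaster) embryos 4 transcripts of ethylene biosynthesis and of the ERF family were followed, taken by identifier from the 287424 transcripts of the count table. They were the ACC synthase transcripts ppt_100303 and ppt_150236, ppt_3095 (best protein match ERF012 of Arabidopsis thaliana) and ppt_90102, an uncharacterized protein by match (Picea sitchensis) that the study places in the ERF family. In the study's co-expression network ppt_100303 was a hub of the brown module, ppt_150236 belonged to the same module without being a hub, and ppt_3095 and ppt_90102 were hubs of the blue module. The 4 transcripts were thus selected on their levels in these same libraries, the co-expression over all 18 and the stage comparisons, and their values are a description with no p. All 4 passed the filter on low values, which kept the 23118 transcripts that exceeded 2 CPM (read counts scaled to a common library size) in 6 libraries or more. For ppt_100303 this rested on 8 somatic libraries and no zygotic one, for ppt_150236 on 9 somatic and 5 zygotic, for ppt_3095 on 5 somatic and 6 zygotic, and for ppt_90102 on 1 somatic and 6 zygotic.

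Somatic embryos of 1 embryogenic line, PN519, were matured in darkness at 24 °C on medium gelled with Phytagel at 9 g/L, with sucrose at 68 g/L and abscisic acid at 80 µM, and were taken at the translucent stage after 4 to 6 weeks (ES1), at the opaque pre-cotyledonary stage after 6 to 10 weeks (ES2) and at the cotyledonary stage after 12 to 14 weeks (ES3). Zygotic embryos came from developing seeds of 1 seed orchard collected from early July to early September before cotyledons had formed (PC), as they appeared (EC) and with cotyledons (C). Each stage had 3 libraries, 18 in all. Embryo type was thus tied to genotype, culture and harvest, which cannot be told apart here. Both technical replicas and separate biological samples appear in the methods, and the labels leave unsaid which of these a library is, so all errors and p-values stand for library-to-library spread that may be technical.

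Ethylene is made in plants from S-adenosylmethionine through 1-aminocyclopropane-1-carboxylic acid (ACC). ACC synthase makes ACC, usually the limiting step, and ACC oxidase turns it into ethylene. Ethylene response factors (ERFs) carry an AP2 DNA-binding domain and form a large family of transcription factors. Some members act at the end of ethylene signalling in Arabidopsis, and others act in cold or drought response, organ formation or seed filling. ERF012 of Arabidopsis belongs to the DREB branch of that family.

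The C libraries were the deepest, with totals of 74949347 to 89590401 counts, against 22725467 to 43510184 in the remaining 15. In C, 132828 to 136626 transcripts had a count, against 24704 to 25194 in the other libraries, and 29.05% to 29.43% of their counts lay in 137783 transcripts that no other stage had counts for. The scaling factors (trimmed mean of M values, TMM) were 0.422 to 0.4278 in C and 0.8245 to 1.442 elsewhere. Every result that uses C rests on these libraries, and the comparisons between other stages are given first. All libraries shared the filter, the scaling and the fit, so the C libraries also entered those comparisons. As markers of maturing embryos, 16 storage protein and oil body transcripts were followed in all libraries. The megagametophyte around zygotic embryos holds the same storage proteins, so these markers cannot tell embryo from that tissue. Of the 16 transcripts, 16 were above 2 CPM in each somatic stage, 11 in PC, 15 in EC and 15 in C. Their summed level was higher in ES1 (830.3 to 1089 CPM) than in PC (154.3 to 218.6). It was also higher in ES2 (882 to 1163) than in EC (253.6 to 385.2). The sums of ES3 (1026 to 1865) and C (956.7 to 1069) overlapped. Single markers went both ways in that pair. The marker ppt_123612 had a mean of 203 CPM in ES3 and 0 in C, while ppt_75169 had 46.0 CPM in ES3 and 98.9 CPM in C. The part of these marker levels in the ethylene differences was not tested. Among the somatic libraries ES3 replicate C stood farthest from its group.

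The ACC synthase transcript ppt_100303 was counted in somatic embryos and almost absent from zygotic ones. Its levels in ES1 were 2.43, 1.21 and 2.45 CPM (TMM-scaled, as all levels below). They were 4.97, 6.14 and 3.81 CPM in ES2 and 5.02, 6.52 and 9.26 CPM in ES3. In PC they were 0.0482, 0.104 and 0.044 CPM, which stand for 2, 4 and 2 reads, and the 3 EC and 3 C libraries had no read. The order of stages was therefore ES3, ES2, ES1 and PC, with EC and C at 0, and the ranges of ES3 and ES2 overlapped while those of the other neighbours did not. A count of 0 over the 3 libraries of a stage allows up to 3 reads, or 0.0229 CPM in EC and 0.0413 CPM in C. This limit and the intervals below cover counting error only.

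The other ACC synthase transcript, ppt_150236, was found in both embryo types. It stood at 4.73, 2.88 and 4.15 CPM in ES1, at 6.15, 6.85 and 6.2 CPM in ES2, and at 7.69, 8.8 and 17.6 CPM in ES3. In PC it reached 2.43, 2.75 and 1.8 CPM and in EC 1.75, 1.39 and 1.65 CPM, while the 3 C libraries had no read. Every somatic library was above every zygotic library, and no 2 neighbours in the order ES3, ES2, ES1, PC, EC and C overlapped. The highest ES3 value was that of replicate C, the library farthest from its group. ES3 exceeded ES2 by a log2 fold change of 0.83 ± 0.31 (SE) with that library and by 0.36 without it.

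The ERF012 transcript ppt_3095 had the opposite distribution. Its highest levels were in PC, at 20.1, 18.3 and 35.9 CPM, followed by EC at 12.6, 16.2 and 13.8 CPM. ES1 had 6.03, 8.29 and 8.05 CPM, ES2 2.26, 2.06 and 1.53 CPM, and ES3 1.17, 1.36 and 0.576 CPM. In C, 1 library had 2 reads (0.0888 CPM) and the others none. The 6 stages thus followed each other as PC, EC, ES1, ES2, ES3 and C with no overlap between neighbours, and all PC and EC libraries were above all somatic ones.

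The ERF family transcript ppt_90102 resembled ppt_3095 in where it was high. It stood at 7.93, 7.4 and 15.4 CPM in PC and at 5.25, 9.92 and 7.84 CPM in EC, and these ranges overlapped. The somatic values were 1.84, 1.3 and 1.42 CPM in ES1, 0.384, 1.13 and 0.665 CPM in ES2, and 0.107, 0.159 and 0.396 CPM in ES3. The C libraries had no read. ES1 lay above ES2 in every library, ES2 and ES3 overlapped narrowly, and the ES3 values stood for 4, 7 and 11 reads. PC replicate 3 was the highest library of both ppt_3095 and ppt_90102. Levels are not compared between transcripts, since transcript lengths were not used here.

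**Figure D1:**
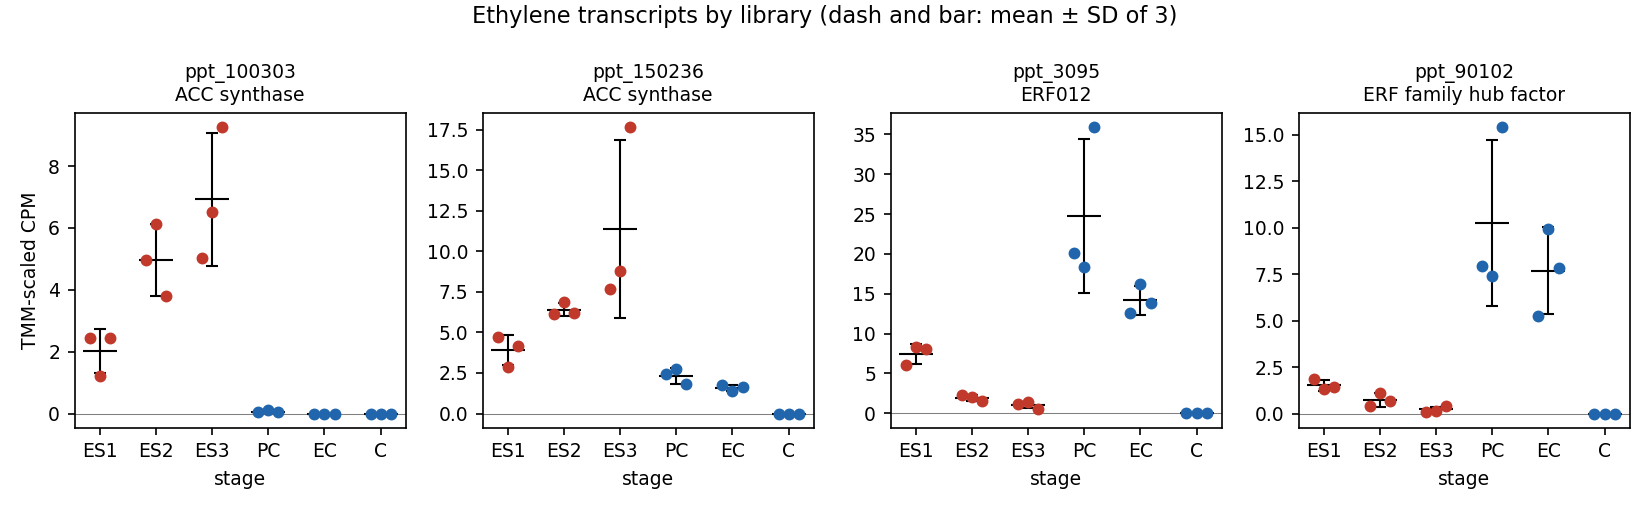
Level of each of the 4 transcripts (TMM-scaled CPM, linear axis) in every library by stage, with somatic libraries in red, zygotic libraries in blue, and the mean ± SD of 3 libraries in black. The ACC synthase transcripts ppt_100303 and ppt_150236 were highest in ES3 and the ERF transcripts ppt_3095 and ppt_90102 in PC, and all 4 were at or near 0 in C.

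ES1 was compared with PC to ask how somatic and zygotic embryos differed at the earliest stage sampled. The ACC synthase transcript ppt_100303 was 30.1-fold higher in ES1 (log2 fold change 4.91 ± 0.51, SE) and ppt_150236 1.68-fold higher (0.75 ± 0.31). ERF012 ppt_3095 was 3.32-fold lower (-1.73 ± 0.33) and ppt_90102 6.73-fold lower (-2.75 ± 0.46). Transcripts were called by edgeR's quasi-likelihood test, at a threshold of 0.05 for the p adjusted after Benjamini and Hochberg and of 1 for the size of the log2 fold change. By that rule 1 of the 4 was higher and 2 were lower in ES1, where 24.2% of all tested transcripts were called higher and 13.5% lower. These 4 were chosen with such differences known, so nothing is read from that count.

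The same question was put to the other transcripts of the pathway, 44 in all. The 44 had been named ACC synthase, ERF or AP2 in the study's hub and module tables, or shared a protein match with an ERF hub factor. The study built those tables on these samples, and some were held here only in part, so the list is not complete and is not independent evidence of direction. All 44 passed the filter. In ES1 against PC 13 were higher, 23 were lower and 8 did not pass, beside the shares of 24.2% and 13.5% over all tested transcripts. Their median log2 fold change was -1.48, against 0.03 over all transcripts tested. Transcripts that share a match were counted separately here. Calls after summing to 18 matches are given with the alternative runs.

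All 7 other ACC synthase transcripts were higher in ES1, with log2 fold changes of 1.29 to 4.10. The 5 transcripts ppt_150236 to ppt_150240 share 1 protein match and summed to 5.78 ± 1.41 CPM in PC and to 14.4 ± 2.98 CPM in ES1 (mean ± SD of 3 libraries). Reads of transcripts that share a match could be divided between them by the counting. The transcripts ppt_100302 and ppt_100303 are next to each other in number but differ in match, as ppt_100302 has the match of ppt_150236. Together they had 3.56 ± 0.486 CPM in ES1 and 0.149 ± 0.0639 CPM in PC. The pair ppt_173842 and ppt_173844, which match the same spruce ACC synthase as ppt_100303, had 3.26 ± 0.868 CPM in ES1 and 0.478 ± 0.304 CPM in PC. Each of these sums was higher in every ES1 library than in any PC library.

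Of the 8 other ERF hub factors, 7 were lower in ES1 than in PC. The remaining one, ppt_171237, had a log2 fold change of -1.16 ± 0.62 (edgeR, adjusted p = 0.123). The second ERF012 transcript, ppt_47242, fell with ppt_3095, from 17.7 ± 2.77 CPM in PC to 3.05 ± 0.897 CPM in ES1 (log2 fold change -2.54 ± 0.53, adjusted p = 0.00101, edgeR). ppt_90101, which has the protein match of ppt_90102, was lower by a log2 fold change of -2.90 ± 0.69 (edgeR, adjusted p = 0.00202). Among 9 further transcripts with the match of an ERF hub factor, 6 were lower and none was higher. The count of higher ones was also 0 at an unadjusted p under 0.05 and with DESeq2.

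Other transcripts with an ERF or AP2 name went in both directions in ES1 against PC, 6 higher and 10 lower of 20. ERF1A of Arabidopsis binds the GCC box of defence genes, and the 4 transcripts that match it were all higher in ES1. Together they had 25.9 ± 1.45 CPM in ES1 and 0.323 ± 0.559 CPM in PC. Lower in ES1 were ppt_105911, which matches WRI1 (an activator of fatty acid synthesis genes in Arabidopsis seeds), the 5 transcripts with AP2 names next to it, ppt_236282, which matches ESR1 (a regulator of shoot formation in Arabidopsis), and the 3 transcripts with the match of a CBF7-like factor, a family known for cold response. The WRI1 match went from 64.6 ± 6.72 CPM in PC down to 18.6 ± 1.85 CPM (log2 fold change -1.80 ± 0.13, edgeR adjusted p = 2.92e-08).

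ES2 was compared with EC as the second pair of stages. The ACC synthase transcript ppt_100303, absent from EC, was at least 218-fold higher in ES2, a bound set by the floor of 3 reads over the EC libraries. ppt_150236 was 4.02-fold higher (log2 fold change 2.01 ± 0.32). ppt_3095 was 7.29-fold lower (-2.87 ± 0.35) and ppt_90102 10.6-fold lower (-3.40 ± 0.48). In this pair, too, no transcript of the 4 had overlapping groups. The call rule took 2 of the 4 as higher and 2 as lower, where it took 22.7% and 16.7% of all tested transcripts.

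Of the 44 other transcripts 17 were higher in ES2 than in EC, 22 were lower and 5 did not pass. All 7 ACC synthase transcripts were higher, from a log2 fold change of 1.48 for ppt_173842 to 6.49 for ppt_100302. The sum of ppt_150236 to ppt_150240 was 27.2 ± 4.46 CPM in ES2 and 3.79 ± 0.775 CPM in EC. Of the 8 ERF hub factors 7 were lower, and ppt_155247 had a log2 fold change of -1.18 ± 0.65 (edgeR, adjusted p = 0.126). ERF012 ppt_47242 was 22.5-fold lower, with 0.976 ± 0.665 CPM in ES2 and 21.9 ± 8.65 CPM in EC (log2 fold change -4.49 ± 0.59, edgeR adjusted p = 1.83e-05). Of the 9 transcripts with the match of a hub factor, 6 were lower.

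Among the 20 transcripts with other ERF or AP2 names, 10 were higher in ES2 than in EC and 9 lower. The higher ones were the 4 of the ERF1A match and 6 that match ERF1-like, ERF2, ERF5 and ERF106 factors. Of these ppt_109022 had 84.9 ± 17.2 CPM in ES2 and 11.8 ± 0.624 CPM in EC (log2 fold change 2.84 ± 0.19, edgeR adjusted p = 8.88e-09). The lower ones were the WRI1 match, the 5 with AP2 names and the 3 of the CBF7-like match, whose log2 fold changes were -4.16 to -4.53. ESR1 ppt_236282 stood at -0.93 and did not pass.

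**Figure D2:**
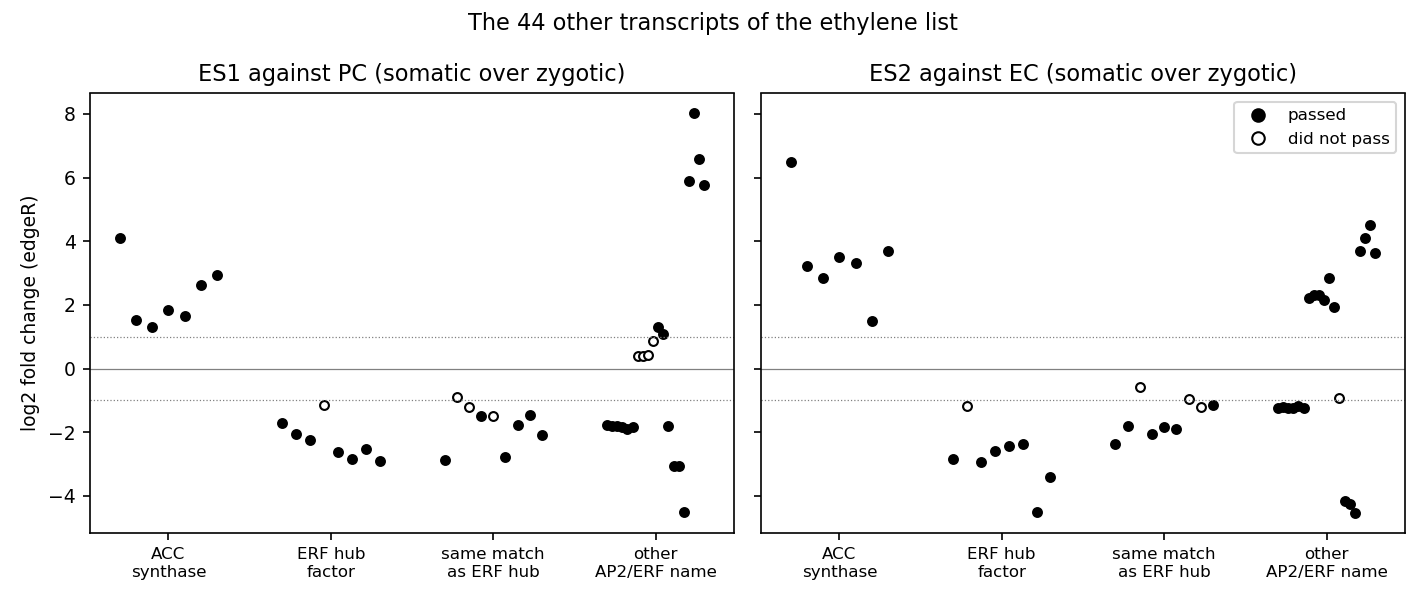
Log2 fold change (edgeR) of the 44 other transcripts of the list in ES1 against PC and in ES2 against EC, in 4 groups, with filled points for transcripts that passed the test and dotted lines at the fold threshold. All 7 ACC synthase transcripts lie above 0 in both panels, every ERF hub factor lies below 0, and transcripts with other AP2 or ERF names lie on both sides.

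Along somatic maturation the levels of the 4 transcripts differed in direction. From ES1 to ES2 ppt_100303 was 2.45-fold higher (log2 fold change 1.29 ± 0.38) and ppt_150236 1.63-fold higher (0.71 ± 0.31). ppt_3095 was 3.83-fold lower (-1.94 ± 0.35) and ppt_90102 2.09-fold lower (-1.07 ± 0.46). The call rule took 1 of the 4 as higher and 1 as lower, where it took 8.42% and 9.6% of all transcripts. The comparisons that use ES2 share its libraries and are given side by side, not as separate evidence.

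Of the 44 other transcripts 8 were higher in ES2 than in ES1 and 1 was lower. The higher ones were 3 ACC synthase transcripts, among them ppt_173844 at 1.52 ± 0.266 CPM in ES1 and 4.62 ± 1.01 CPM in ES2, and 5 transcripts of the ERF1-like, ERF2, ERF5 and ERF106 matches. The lower one was the second ERF012 transcript, ppt_47242 (log2 fold change -1.65 ± 0.55, edgeR adjusted p = 0.0333). These counts rested on single libraries. The 8 became 5 without ES1 replicate A or B and 4 without ES2 replicate B, and the 1 became 0 without ES1 replicate A or C or without ES2 replicate B or C. The ERF1A transcripts did not pass, with log2 fold changes of 0.26 to 0.62.

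From ES2 to ES3 the differences were smaller. ppt_100303 was 1.39-fold higher (log2 fold change 0.48 ± 0.37) and ppt_150236 1.77-fold higher (0.83 ± 0.31). ppt_3095 was 1.84-fold lower (-0.88 ± 0.36), and ppt_90102 3.41-fold lower (-1.77 ± 0.54). The call rule took none of the 4 transcripts and none of the 44 others in either direction, where it took 1.65% of all transcripts as higher and 2.72% as lower. By library size alone and by deposited totals it took ppt_90102 as lower, at log2 fold changes of -1.99 and -2.00. At an unadjusted p under 0.05 edgeR gave 2 of the 44 as higher and 3 as lower, and DESeq2 called 0 higher and 2 lower. Without ES3 replicate C edgeR called 1 lower, and ppt_90102 then stood at a log2 fold change of -2.41.

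From PC to EC ppt_100303 went from 8 reads over 3 libraries to 0, at least 2.86-fold lower. ppt_150236 had a log2 fold change of -0.55 ± 0.32 and ppt_3095 of -0.80 ± 0.32, both without overlap. ppt_90102 stood at -0.42 ± 0.42, and at -0.01 without PC replicate 3. The call rule took ppt_100303 as lower and none of the 4 as higher, where it took 2.25% and 5.83% of all transcripts. Of the 44 others 3 transcripts of the ERF1A match were higher in EC than in PC (ppt_68792, ppt_68794 and ppt_68796) and none was lower. The 3 became 1 without PC replicate 1 and 5 without PC replicate 3. Few reads stood behind these 3 calls. In PC the transcripts had 18, 2 and 6 reads, in each case all in 1 library. Their EC means were 0.797, 0.428 and 0.309 CPM, and the ranges of ppt_68792 overlapped. The count of lower ones was 3 at an unadjusted p under 0.05 and 0 with DESeq2. The zygotic levels of the ERF1A match remained far below the somatic ones, at 2.26 ± 1.25 CPM in EC and 34.6 ± 2.21 CPM in ES2.

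**Figure D3:**
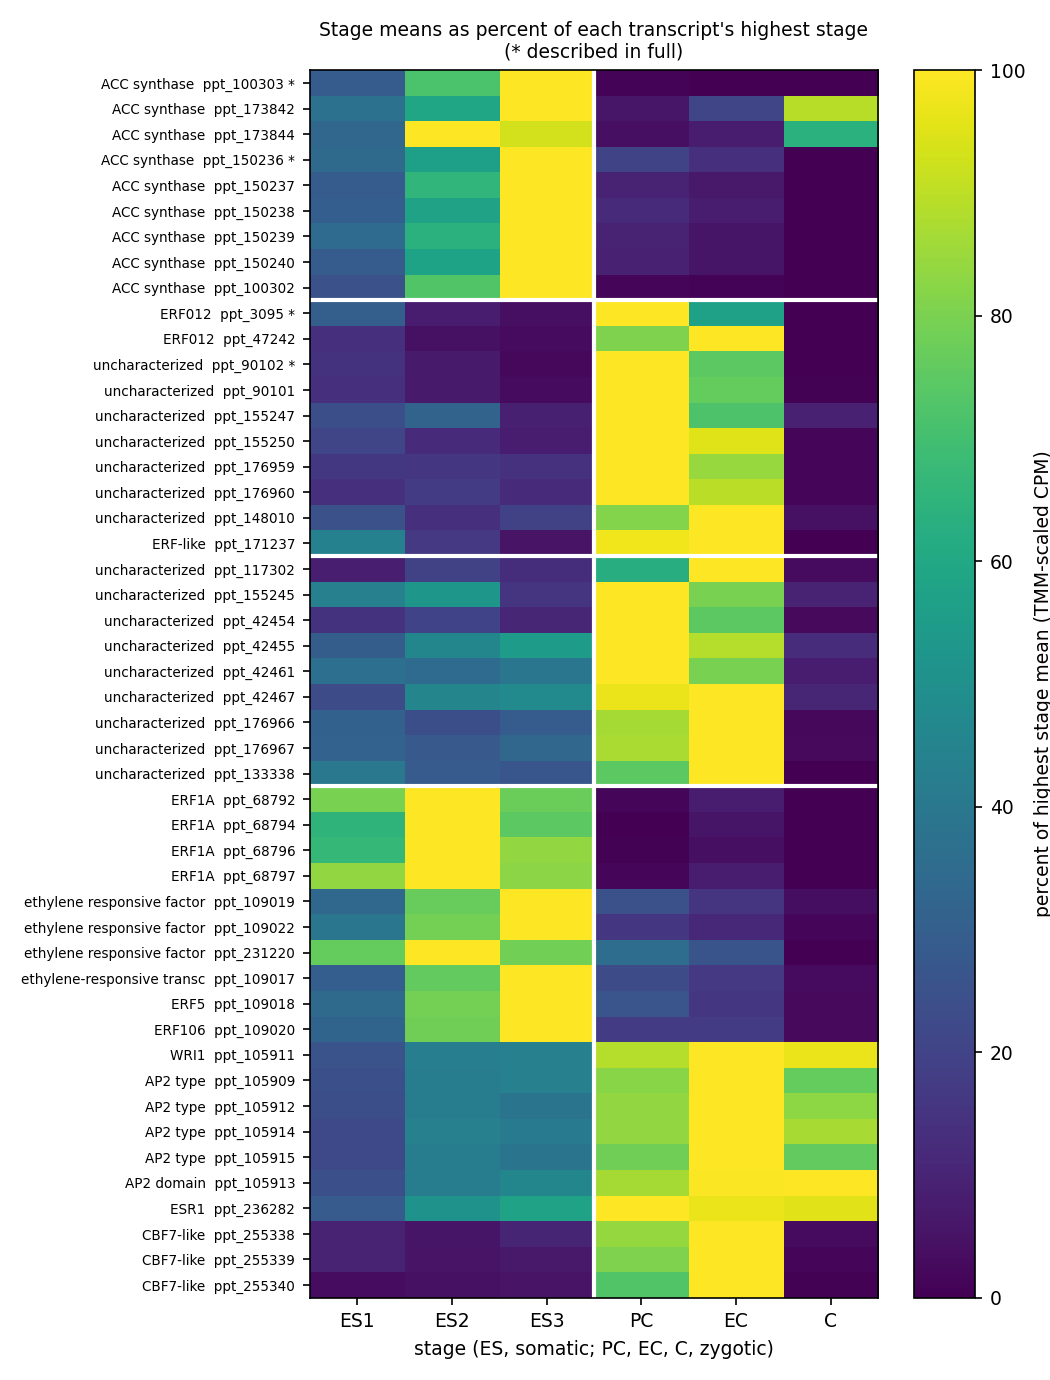
Mean level of the 48 transcripts of the ethylene list in each stage, as percent of the transcript's own highest stage mean (colour scale from 0 to 100), with the 4 transcripts described in full marked by an asterisk. The ACC synthase transcripts were highest in ES2 or ES3, the ERF hub factors and their matches in PC or EC, and only ppt_173842 and ppt_173844 of the ACC synthases had more than a trace in C.

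All 4 transcripts were at or near 0 in C, the cotyledonary zygotic stage. Against C, ppt_100303 was at least 168-fold higher in ES3, ppt_150236 at least 276-fold and ppt_90102 at least 5.35-fold. For ppt_3095 the ratio of ES3 to C was 39.9 (95% counting interval 10.8 to 334), from 120 and 2 reads. Against EC, ppt_150236 was at least 38.6-fold lower in C and ppt_90102 at least 186-fold lower, and the ratio of EC to C for ppt_3095 was 525 (145 to 4340). ppt_100303 was at 0 in both. In bulk RNA, fewer cells of a type and less RNA in each cell cannot be told apart.

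These zeros were found in libraries of a different make-up, and the part of that make-up in them was not tested. Of all 23118 transcripts kept, 6.7% had at most 3 reads over the 3 C libraries. Of the 14502 with at least 5 CPM in EC, as ppt_3095 and ppt_90102 had, the share was 2.63%. Of the 14840 with at least 5 CPM in ES3, as ppt_100303 and ppt_150236 had, it was 2.83%. Transcripts with the next numbers gave reads in C where the named ones did not. The 5 identifiers that follow ppt_100303 in number, ppt_100304 to ppt_100308, had 41 to 420 reads over the C libraries and none in any other library. Of the 5 that precede ppt_90102, ppt_90099 and ppt_90100 had 758 and 1265 reads in C only. No neighbour of ppt_150236 or ppt_3095 within 5 numbers reached 30 reads in C only. Such a neighbour stood next to 79.8% of all kept transcripts, to 63.8% of those with at most 3 reads in C and to 80.9% of the others. The neighbours have no name here, and their part in the zeros was not tested. Whether the reads of C were counted on the same set of transcripts as those of the other stages is not stated in the sources used here and was not tested. A different set would change what a 0 in C, and each bound against it, stands for.

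**Figure D4:**
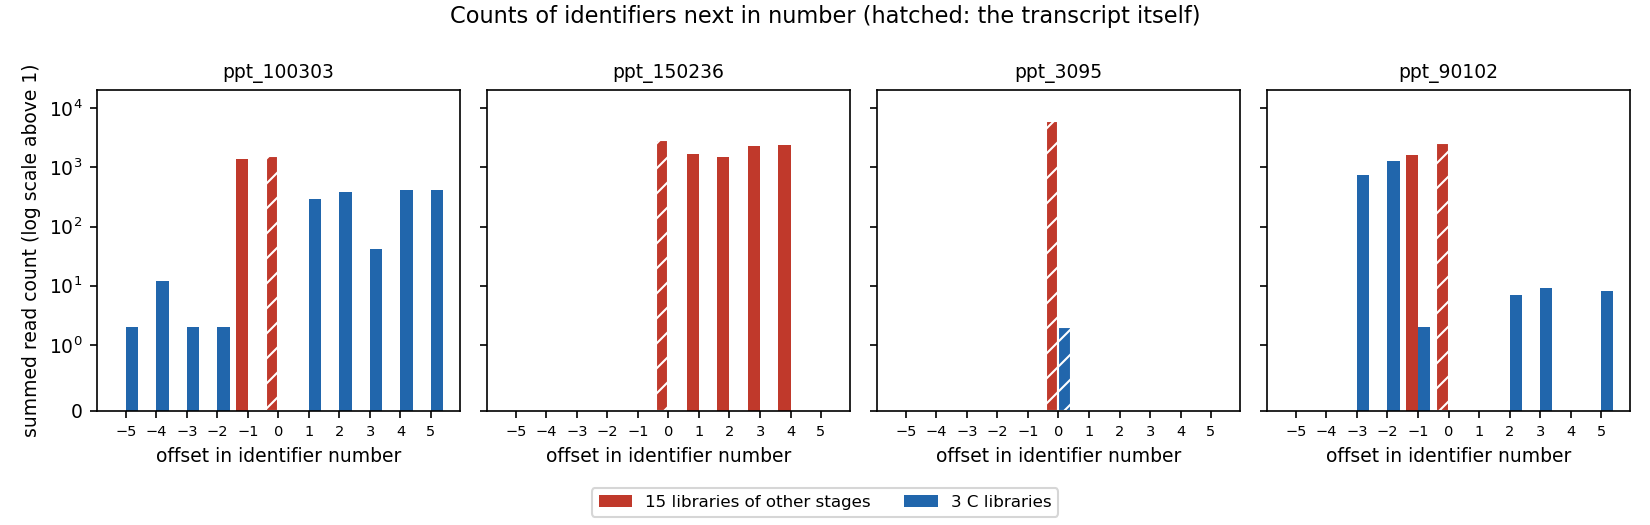
Summed read counts of the identifiers within 5 numbers of each transcript, in the 3 C libraries (blue) and in the 15 libraries of the other stages (red), with the transcript itself hatched and the vertical axis logarithmic above 1. The 5 identifiers after ppt_100303 and ppt_90099 and ppt_90100 before ppt_90102 had reads in C only, and ppt_150237 to ppt_150240 after ppt_150236 had reads outside C only.

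In ES3 against C the call rule took all 4 transcripts as higher, where it took 29.9% of all transcripts as higher and 15.1% as lower. Of the 44 others 32 were higher and 4 lower, or 88.9% of the calls higher. With library size alone or the deposited totals as scale the calls were 36 higher and 0 lower, or 100%. The median log2 fold change of all transcripts was 0.19 on the TMM scale, 1.34 by library size alone and 1.84 by deposited totals. The list median was 3.13, or 2.86 with the 12 transcripts that had a group at 0 set to their bound. The 5 ACC synthase transcripts with the match of ppt_150236 were all at 0 in C. The 4 lower ones were the WRI1 match and 3 with AP2 names, at log2 fold changes of -1.08 to -1.16 with TMM. With library size alone their direction turned except for the WRI1 match at -0.02, and with the deposited totals all 4 turned.

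In C against EC the call rule took 3 of the 4 transcripts as lower and none as higher, where it took 29% and 22.7% of all transcripts. Of the 44 others 34 were lower, 2 were higher and 8 did not pass, with a median log2 fold change of -0.07 over all transcripts (-1.71 by library size alone, -2.20 by deposited totals). All 8 ERF hub factors and all 9 with their matches were lower in C, among them ERF012 ppt_47242, at least 532-fold, and ppt_90101, from 4.89 ± 1.55 CPM to 2 reads. The WRI1 match, the 5 with AP2 names and ESR1 did not pass, and ppt_105913 had 105 CPM in both stages (SD 8.40 in EC and 5.68 in C). This held on the TMM scale. By library size alone and by deposited totals all 7 were called lower in C, ppt_105913 at log2 fold changes of -1.63 and -2.13, and 42 of the 44 were called lower in place of 34. The 2 higher ones were the ACC synthase transcripts ppt_173842, at 0.963 ± 0.729 CPM in EC and 4.11 ± 0.848 CPM in C (log2 fold change 2.09 ± 0.58, edgeR adjusted p = 0.00445), and ppt_173844, at 0.351 ± 0.0631 and 2.95 ± 0.113 CPM (3.05 ± 0.56, adjusted p = 0.000143). The direction of ppt_173842 turned to -0.06 with the deposited totals. In ES3 against C this pair did not pass, at 0.17 ± 0.55 (adjusted p = 0.805) and 0.55 ± 0.50 (adjusted p = 0.347) on the TMM scale. Both were called higher in ES3 by library size alone, at 1.33 and 1.70, and by deposited totals, at 1.83 and 2.19.

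For each of the 4 transcripts the closest profiles were sought among 1688 kept transcripts with a protein name in the study's tables, by the root mean square difference of centred log2(CPM + 1) values over the 18 libraries. Transcripts with the name or match of the one described were left out, and 1 was taken per name. Its own relatives could thus lie closer than those given. These tables and the 4 transcripts come from the same libraries, so the likeness is a description. The closest to ppt_100303 was ppt_126367, with the match of ginkbilobin-2, an antifungal protein of Ginkgo seeds (difference 0.245), at 3.41, 6.32 and 11.5 CPM in ES1, ES2 and ES3 and at most 0.244 CPM in the zygotic stages. The next were ppt_44233 (pathogenesis-related protein P2, 0.31) and ppt_112070 (maternal effect embryo arrest 14, 0.354).

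The 3 closest to ppt_150236 were themselves of the ethylene list, ppt_109020 (ERF106, 0.327), ppt_109018 (ERF5, 0.351) and ppt_109017 (ERF2, 0.354). These 3 identifiers are close in number and their stage profiles run in parallel. Whether they stem from separate genes was not tested. The ERF106 match had 5.99, 14.6 and 18.6 CPM in the somatic stages and 3.26, 3.25 and 0.482 CPM in PC, EC and C. Closest to ERF012 ppt_3095 were ppt_178063 (the acyl-activating enzyme AAE11, 0.349), ppt_69394 (a cytosine-specific methyltransferase, which methylates DNA, 0.36) and ppt_133951 (GH3.6, which in Arabidopsis conjugates auxin to amino acids, 0.374). GH3.6 had 24.7 CPM in PC and 20.5 CPM in EC, against 6.68, 3.24 and 0.661 CPM in ES1, ES2 and ES3 and 0.195 CPM in C. Closest to ppt_90102 were ppt_212924 (peroxidase 25, 0.286), ppt_183463 (a putative ovule protein, 0.318) and ppt_122807 (an NDR1/HIN1-like protein, 0.34). Peroxidase 25 was, like ppt_90102, at 0 in C, with 8.47 CPM in PC and 7.13 CPM in EC.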

How the data were processed

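RNA of 18 maritime pine embryo libraries (3 for each of 6 stages) was sequenced as 150 bp paired ends. The authors deposited raw read counts per transcript, in whole numbers. Reads had been cleaned by the authors with SeqTrimBB, assembled with Trinity 2.11, CD-HIT-EST and Mira to extend a maritime pine transcriptome, aligned by BWA MEM to the maritime pine transcriptome of earlier work that the methods cite, and counted by sam2counts. The version of BWA is not given in the sources used here. The way reads with several matches were counted is not stated, so transcripts sharing a match are uncertain. No genome was at hand, so no positions are given, and sequences of the 4 transcripts were not used here. The labels gave each of the 18 count columns its stage and replicate.

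The filter of the methods, over 2 CPM in 6 libraries or more, left 23118 of 287424 transcripts. They were tested in R 4.3.3 with edgeR 4.0.16 (quasi-likelihood F-test, TMM; limma 3.58.1), with the 6 stages as groups in 1 fit, and p was adjusted by Benjamini-Hochberg over every transcript kept. Calls were made below an adjusted p of 0.05 and beyond a log2 fold change of 1. The SE was taken from the fold change and the root of F. A fold against a stage without reads is a bound at a floor of 3 reads over the stage. The fit was also run on counts simulated from its own estimates, read out for ES1 against PC only. Changes were placed only in transcripts above a minimum mean count, so low counts and C were not covered. DESeq2 1.42.0 and other scalings, filters, fits, sums by match, a replicate block and omission of each library were alternatives. An analysis without C was added after seeing the data.

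The 4 transcripts and the lists were chosen with earlier results of these data known. Named transcripts are the 4, those sharing their protein match, up to 4 per list and comparison with the lowest p, and for each of the 4 the 3 closest profiles of another name. The neighbours in number and other transcripts were named after their values were seen. The main fit did not pair libraries by replicate letter or number. Correlations of deviations between libraries with the same letter or number in successive stages ran from -0.429 to 0.379. Libraries with unlike labels were not compared, so these values do not settle the pairing. Chi-square over its degrees of freedom was 12.16 to 147 between replicates, above sampling noise.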

Additional observations from a re-analysis of the deposited data

Results flagged for a closer look

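Over the step from ES1 to ES2 the mean level of the ACC synthase transcript ppt_100303 was higher by 2.94 CPM, while over the step from PC to EC it fell by 0.0654 CPM, from 8 reads to 0. The ACC synthase transcript ppt_150236 was higher by 2.48 CPM over the first somatic step and fell by 0.735 CPM from PC to EC. Over the next step it was higher by 4.98 CPM from ES2 to ES3 and fell by 1.59 CPM from EC to C. In each case all libraries of the later somatic stage lay above those of the earlier one, and all libraries of the later zygotic stage lay below. The difference between the steps was not tested.

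Identifiers next in number to ppt_100303 and ppt_90102 had reads in the C libraries only, outside the 48 transcripts of the ethylene list. Over the 3 C libraries ppt_100304 had 294 reads, ppt_100305 had 381, ppt_100306 had 41, ppt_100307 had 420 and ppt_100308 had 409. ppt_90099 had 758 reads and ppt_90100 had 1265. Such neighbours stood beside 79.8% of all kept transcripts.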

How the results depend on the processing

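No log2 fold change of the 4 transcripts changed direction under any alternative run. Counts stayed within 1.5 times in 116 of 144 cases, and fold changes moved by less than the spread between libraries in 162 of 173. Comparisons of the 4 with a stage of at most 3 reads are left out of these numbers, since their fitted folds depend on the prior count. Under the other scalings their direction was the same. DESeq2 gave 5 higher in EC against PC and 2 lower in ES3 against ES2. Keeping transcripts above 1 CPM in 3 libraries gave 0 lower in ES2 against ES1, and keeping any with 1 count gave 0 lower there and 1 higher in EC against PC. With the deposited totals 0 were higher in C against EC, 0 lower in ES3 against C and 1 lower in ES3 against ES2, and in ES2 against EC ppt_150236 stood at 1.72 and ppt_3095 at -3.17. Library size alone gave 1 higher, 0 lower and 1 lower for these comparisons, and 1.71 and -3.17 for the transcripts. With no fold threshold 15 were higher in ES2 against ES1, 2 lower in EC against PC and 7 lower in ES3 against C. With only the groups compared in the fit 1 was higher in EC against PC and 2 lower in ES2 against ES1. Without the C stage, 2 were lower in ES3 against ES2. Except where fewer features or libraries were tested, the cause was not tested.

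Summing transcripts of the same match left 18 features. Of these 3 were higher and 10 lower in ES1 against PC, 7 and 10 in ES2 against EC, 13 and 2 in ES3 against C, and 1 and 13 in C against EC. In ES2 against ES1 5 were higher, in EC against PC 1 was higher, and in ES3 against ES2 1 was lower. The sums that hold ppt_100303 and ppt_150236 stood at log2 fold changes of 3.29 and 1.44 in ES1 against PC, and that of ppt_150236 at 3.05 in ES2 against EC. The ERF012 sum stood at -3.63 in ES2 against EC and -0.23 in EC against PC, and the sum that holds ppt_90102 at -2.27 in ES2 against EC and -0.087 in ES2 against ES1.

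Leaving out each library gave 1 to 5 higher in EC against PC, 4 to 9 higher and 0 to 1 lower in ES2 against ES1, and 0 to 1 lower in ES3 against ES2. It gave log2 fold changes of 4.67 to 5.34 for ppt_100303 in ES1 against PC, and for ppt_90102 of -1.52 to -0.77 in ES2 against ES1 and -2.41 to -1.31 in ES3 against ES2. With a replicate block 4 were higher in EC against PC and 7 in ES2 against ES1, and 35 were lower in C against EC. Where few reads stood behind a value, as for ppt_90102 in ES3 or ppt_100303 in PC, depth limited its precision.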
